A study of Mus musculus with 4 samples.

Results

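The CXC chemokines are small secreted proteins that steer leukocytes, and 10 of them (Cxcl1, Cxcl2, Cxcl5, Cxcl9, Cxcl10, Cxcl11, Cxcl12, Cxcl13, Cxcl14 and Cxcl16) were followed in liver and spleen of mice given lipopolysaccharide. They were found by gene symbol, through the RefSeq accession of each probe where it had one, and took up 10 of the 27670 genes and 12 of the 41174 probes on the array. Every member had 1 probe except Cxcl12 and Cxcl16, which had 2 each. All 12 probes were well above background in all 8 channels of the study, and none of their spots was an outlier, so every member is accounted for in every comparison. They are described in 3 groups fixed by textbook function: 3 neutrophil-attracting members, 3 interferon-induced members and 4 homeostatic members.

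The study addressed the effect of dietary nucleoprotein on liver and spleen of injected mice. Male C57BL/6J mice, 7 weeks old, were fed for 4 weeks either a purified diet low in nucleic acids (0.03%, the control) or that diet with 1.2% of a nucleoprotein product (0.5% nucleic acids). All mice then received 10 mg/kg of lipopolysaccharide, the bacterial cell wall component that triggers systemic inflammation, and liver and spleen were removed after 6 h. Within an organ the RNA of each diet was pooled, and each of the 4 arrays compared a control pool with a nucleoprotein pool of the same organ in 2 colours.

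On the replicate 1 array of an organ the nucleoprotein pool carried Cy5 (red) and the control pool Cy3 (green), and on the replicate 2 array the dyes were exchanged. The labels number pooled samples 1 and 2 without saying whether these were the same RNA labelled again or different mice. Both arrays of an organ were taken as the same pools labelled each way, so under this reading a diet difference had no replicate check and no test, and the SD of the 2 arrays covers labelling and hybridisation, including any dye bias. How many mice made up a pool is not given in the sources used here, the housing note names a standard chow where the design names the purified diet, and no uninjected mice were analysed here, so neither induction by lipopolysaccharide nor variation between mice could be measured. A diet call required both arrays to pass 1.5-fold (0.58 as log2) in 1 direction.

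CXC chemokines act through G protein-coupled receptors on leukocytes and are held on glycosaminoglycans of the vessel wall. The neutrophil-attracting group signals through Cxcr2 and is switched on within hours by Toll-like receptors, interleukin-1 and tumour necrosis factor through NF-kB. The interferon-induced group signals through Cxcr3 on activated T and NK cells, and the homeostatic members are made without inflammation and place cells within tissues, as Cxcl13 places B cells in spleen follicles.

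The probes of the chemokines on which the comparisons below turn had distinct sequences. The first 30 bases of each 60-base probe are given in the strand printed in the files, together with both probes of Cxcl12 and Cxcl16, since each pair reads the same gene at different places.
Cxcl1: agaagtgcagagagatagagtttagtatta
Cxcl2: atagttggaaggtgatacatttttaaacct
Cxcl5: agacatttgatgtcttcgtagtatggcata
Cxcl10: gctttgcattgtatatggaagaacttgtgt
Cxcl13: gatttattgtcttgcattaaaaccagtaac
Cxcl12, transcript variant 2 probe: aggagaaggcagcttcctatatgcagcgtg
Cxcl12, transcript variant 1 probe: gaattaatcataaacggaagtttaaatgag
Cxcl16, first probe: tgctttgagcgcaaagagtgtggaactggt
Cxcl16, second probe: tgtaaagttctaggttcaaccctcccacta

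The longest stretch shared by probes of different members was 8 bases (Cxcl9 and Cxcl12), and the probes of the close relatives Cxcl1 and Cxcl2 shared at most 6 bases in a row. On mouse build mm7 (NCBI 35), the build of the files, 7 of the 10 members lay on chromosome 5. The Cxcl5, Cxcl1 and Cxcl2 probes mapped there at chr5:90732453-90732512, chr5:90882059-90882118 and chr5:90894748-90894807 on the plus strand. The Cxcl9, Cxcl10 and Cxcl11 probes mapped to chr5:92310412-92310471, chr5:92334002-92334061 and chr5:92348344-92348495 on the minus strand, and Cxcl13 to chr5:95174192-95174251 on the plus strand. The Cxcl11 probe spanned 152 bases of genome and the first Cxcl16 probe (chr11:70537593-70540334, minus strand) spanned 2742 bases, both longer than the 60-base probe. The second Cxcl16 probe lay at chr11:70535852-70535911, the Cxcl12 probes at chr6:117207552-117207611 (variant 2) and chr6:117200799-117200858 (variant 1) on the plus strand, and Cxcl14 at chr13:55377968-55378027 on the minus strand. RefSeq lists Cxcl11 on its C57BL/6J-derived reference as a transcribed pseudogene, so its values in this strain are those of a transcript and not of a functional chemokine.

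Of the 10 members, 7 had an entry among the RefSeq promoters (GRCm38.p6). The NF-kB consensus, searched on both strands of the 250 bases before the start, was found in Cxcl1, Cxcl2 and Cxcl10, against 3.9% of 32851 promoters of that length. Stretches holding it are shown because these 3 members share the motif; capitals mark the match, and in Cxcl10 the first capital run is the core of the interferon-stimulated response element (GAAA, any 2 bases, then GAAA).
Cxcl1, chr5:90891145-90891204, plus strand: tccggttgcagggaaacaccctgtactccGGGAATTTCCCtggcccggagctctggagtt
Cxcl2, chr5:90903773-90903832, plus strand: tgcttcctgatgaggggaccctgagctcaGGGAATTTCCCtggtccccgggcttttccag
Cxcl10, chr5:92348968-92349117, minus strand: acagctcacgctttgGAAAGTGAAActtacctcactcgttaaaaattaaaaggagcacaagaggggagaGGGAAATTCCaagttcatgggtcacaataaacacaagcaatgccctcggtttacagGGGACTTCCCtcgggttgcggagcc

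The capital run in Cxcl1 and Cxcl2 is the same 11 bases and holds 2 overlapping matches to the 10-base consensus, 1 base apart. The core of the interferon-stimulated response element was present in Cxcl10 and Cxcl14 and in 2.98% of all promoters. The gamma-activated site TTCNNNGAA was present in Cxcl14 and in 7.02% of all promoters. These 2 motifs can overlap each other but did not here. These are letter matches in a short window and say nothing of binding in these samples.

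Signs of other tissue in the pools moved with diet and may bear on the diet values below. In liver all 8 pancreatic acinar markers were called lower in the nucleoprotein pool (median log2 ratio -4.47), and in spleen 7 of 8 were (median -1.25). Their log2 summed level was 16.47 to 16.52 in liver control channels against 11.97 to 12.22 in liver nucleoprotein channels, and 14.35 to 14.45 against 13.06 to 13.24 in spleen. In spleen 5 of 8 measured hepatocyte markers were called higher in the nucleoprotein pool (median 1.29), and their log2 summed level ran from 10.27 to 10.37 in the control channels and from 11.93 to 11.99 in the nucleoprotein channels, with Ttr not well above background in any of them. Liver itself showed 9 of 9 hepatocyte markers higher than spleen, and spleen 5 of 5 measured B cell markers higher than liver, as their labels state. The part of the foreign markers in any chemokine value was not tested.

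No CXC chemokine was called for diet in either organ, and most showed opposite signs on the 2 arrays. Over all genes, 0.329% of 16405 were called in liver and 0.441% of 18150 in spleen, so 0 of 10 members is near the background. The calls in liver were 0.0122% higher and 0.317% lower, and in spleen 0.215% higher and 0.226% lower. Mean log2 ratios of nucleoprotein over control ran from -0.14 (Cxcl9) to 0.14 (Cxcl10) in liver and from -0.05 (Cxcl16 and Cxcl5) to 0.11 (Cxcl9) in spleen. Across all genes the absolute mean ratio had a 95th percentile of 0.20 in liver and 0.18 in spleen, above the value of every member. The median over the members was 0.02 in liver and -0.02 in spleen, beside 0.01 and 0.00 over all genes.

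**Figure D1:**
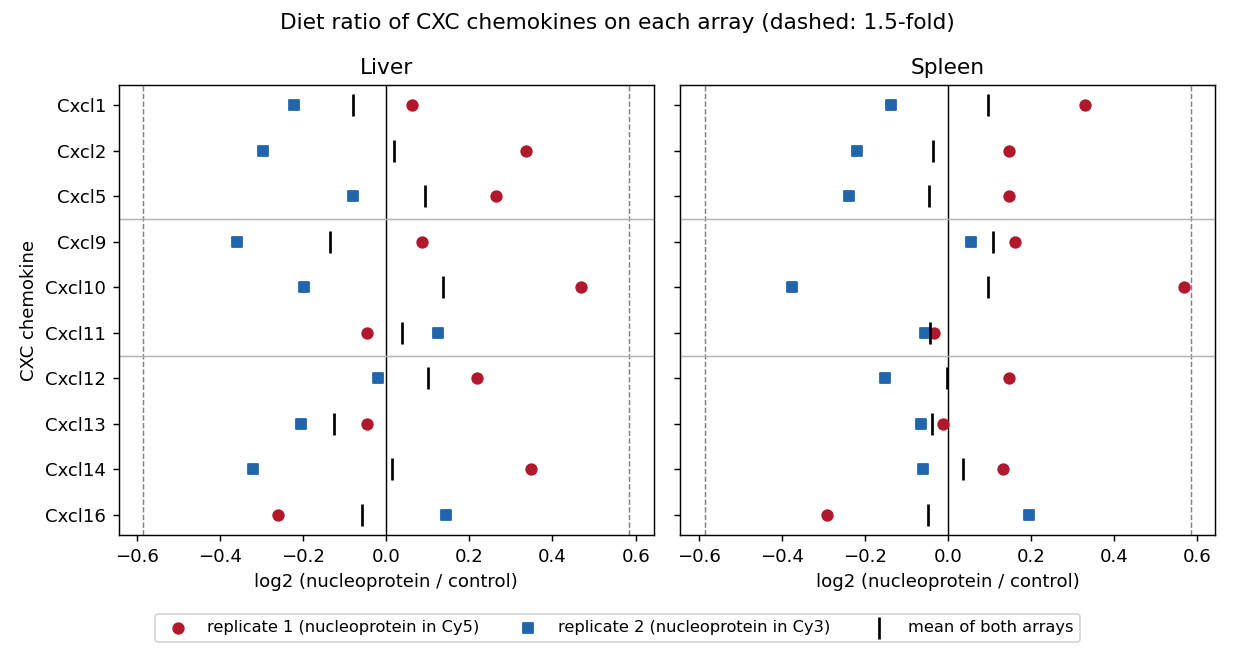
Log2 ratio of nucleoprotein over control (horizontal axis) for the 10 CXC chemokines in liver (left) and spleen (right); circles are replicate 1 arrays, squares replicate 2 arrays, bars the mean of both, and dashed lines 1.5-fold. No mean passes a dashed line, and the 2 arrays lie on opposite sides of 0 for 9 of 10 members in liver and 7 of 10 in spleen.

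Among the neutrophil-attracting members, Cxcl1 (KC, an early product of stimulated macrophages and endothelium) read 13.84 and 13.99 in the control channels of liver and 13.90 and 13.77 in the nucleoprotein channels, as log2 normalized intensity. These 4 levels overlapped between diets. The liver log2 ratio was 0.06 on replicate 1 and -0.22 on replicate 2, a mean of -0.08 ± 0.20 (SD, 2 arrays). In spleen the control channels read 11.92 and 12.22 and the nucleoprotein channels 12.25 and 12.08, again overlapping, with ratios of 0.33 and -0.14 and a mean of 0.10 ± 0.33.

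Cxcl2 (MIP-2, the other main Cxcr2 ligand of mouse macrophages) had the sign of Cxcl1 on each array but means of opposite sign in both organs. Its liver levels were 9.35 and 9.61 in control and 9.68 and 9.32 in nucleoprotein channels, and its ratios 0.34 and -0.30 (mean 0.02 ± 0.45). Spleen levels were 8.98 in both control channels against 9.13 and 8.76, and the ratios 0.15 and -0.22 (mean -0.04 ± 0.26). On each of the 4 arrays the Cy5 channel was the brighter.

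Cxcl5 (LIX, made mainly by epithelial and stromal cells) gave liver levels of 9.42 and 9.51 in control and 9.68 and 9.43 in nucleoprotein channels, with ratios of 0.26 and -0.08 (mean 0.09 ± 0.24). Its spleen levels were 12.29 and 12.45 against 12.43 and 12.21, with ratios of 0.15 and -0.24 (mean -0.05 ± 0.27). No neutrophil-attracting member kept its sign on both arrays of an organ.

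Neutrophil markers are given beside this group, as the cells it attracts. Of 12 on the array (a list of 13), 11 were measured in liver and all 11 had a mean ratio above 0, with a median of 0.13 and none called. In spleen 8 of 12 were above 0, with a median of 0.16 and none called. The sign was the same on both arrays for 8 of 11 in liver and 10 of 12 in spleen, beside 34.1% and 40.3% of all genes. How many of all genes lay above 0, or did not overlap between diets, was not counted. Their log2 summed level was 14.33 to 14.62 in liver control channels and 14.61 to 14.77 in liver nucleoprotein channels, so the ranges overlapped slightly, and 15.47 to 15.68 against 15.75 to 15.81 in spleen, where they did not overlap. Elane was not well above background in any liver channel. In bulk RNA, more cells of a type and more RNA per cell cannot be told apart.

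Cxcl9 (MIG, induced chiefly by interferon gamma) had liver levels of 15.40 and 15.56 in control and 15.49 and 15.20 in nucleoprotein channels, with ratios of 0.09 and -0.36 (mean -0.14 ± 0.32). In spleen it read 14.82 and 14.80 in control and 14.98 and 14.85 in nucleoprotein channels, so both nucleoprotein channels lay above both control channels. The share of all genes with diets apart in this way was not counted, so this is not read as particular to Cxcl9. The spleen ratios were 0.16 and 0.05 (mean 0.11 ± 0.08), far under the 1.5-fold bound.

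Cxcl10 (IP-10, induced by type I and type II interferon and by NF-kB) had the widest disagreement between arrays in spleen. Its spleen levels were 14.88 and 15.34 in control and 15.44 and 14.96 in nucleoprotein channels. The ratio was 0.57 on replicate 1, just short of 1.5-fold, and -0.38 on replicate 2, a mean of 0.10 ± 0.67. In liver it read 14.47 and 14.83 in control and 14.94 and 14.63 in nucleoprotein channels, with ratios of 0.47 and -0.20 (mean 0.14 ± 0.47). On all 4 arrays the Cy5 channel was the brighter, whichever pool carried it.

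Cxcl11 (I-TAC, a pseudogene transcript here) read 10.52 and 10.64 in liver control and 10.47 and 10.77 in liver nucleoprotein channels, with ratios of -0.05 and 0.12 (mean 0.04 ± 0.12). Its spleen channels read 10.29 and 10.18 in control and 10.26 and 10.12 in nucleoprotein, with ratios of -0.03 and -0.05 (mean -0.04 ± 0.02). The spleen arrays shared a sign, but the difference was small beside the 0.10 median SD of all genes in spleen.

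Of the homeostatic members, Cxcl12 (SDF-1, which retains Cxcr4-bearing leukocytes and stem cells in their niches) was read by 2 probes. The variant 2 probe gave liver levels of 11.85 and 12.05 in control and 12.06 and 12.03 in nucleoprotein channels (ratios 0.22 and -0.02, mean 0.10 ± 0.17), and spleen levels of 13.54 and 13.58 against 13.69 and 13.43 (ratios 0.15 and -0.15, mean -0.00 ± 0.21). The variant 1 probe gave ratios of -0.06 and 0.09 in liver (mean 0.01 ± 0.11) and -0.16 and 0.18 in spleen (mean 0.01 ± 0.24). The sign on each array was thus opposite between the 2 probes of the same gene, while the mean of both arrays was near 0 for each.

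Cxcl13 (BLC, the B cell attractant of follicles) was the only member whose ratio kept its sign on both liver arrays, -0.05 and -0.21 (mean -0.13 ± 0.11). With median centring its mean turned to 0.11, where the median of all genes was 0.17. Its liver levels were 9.69 and 9.72 in control and 9.64 and 9.51 in nucleoprotein channels, so the nucleoprotein channels lay below both controls. How many of all genes had diets apart in this way was not counted, so this is not read as particular to Cxcl13. Spleen levels were 12.91 and 13.12 against 12.89 and 13.05, which overlapped, with ratios of -0.01 and -0.07 (mean -0.04 ± 0.04). B cell markers had a median diet ratio of -0.03 in liver and -0.04 in spleen, with none called.

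Cxcl14 (BRAK, made by epithelia and stroma without stimulation) read 8.16 and 8.39 in liver control and 8.51 and 8.07 in liver nucleoprotein channels, with ratios of 0.35 and -0.32 (mean 0.01 ± 0.47). In spleen it read 6.78 and 6.81 in control and 6.91 and 6.75 in nucleoprotein channels, with ratios of 0.13 and -0.06 (mean 0.04 ± 0.13). The diets overlapped in both organs.

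Cxcl16 (a membrane-bound chemokine and scavenger receptor of macrophages and dendritic cells, the ligand of Cxcr6) ran the other way round. Its first probe read 9.98 and 9.63 in liver control and 9.72 and 9.77 in liver nucleoprotein channels, with ratios of -0.26 and 0.14 (mean -0.06 ± 0.29). In spleen the ratios were -0.29 and 0.20 (mean -0.05 ± 0.34), from control channels at 11.23 and 11.17 and nucleoprotein channels at 10.94 and 11.37. Its second probe gave -0.25 and 0.11 in liver and -0.17 and 0.11 in spleen, the same signs as the first on every array.

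The dye orientation therefore had to be read beside each diet ratio. The dye difference, the mean over both arrays of log2 Cy5 over Cy3, was larger in size than the diet mean for 9 of 10 members in liver, where Cxcl13 was the exception, and for 7 of 10 in spleen, where Cxcl9, Cxcl11 and Cxcl13 were. Over all genes the same held for 65.9% in liver and 59.7% in spleen. With the dyes exchanged, a ratio keeps its sign on both arrays only where the diet mean is the larger in size. Counts of kept signs therefore restate the same comparison and add no further result. The sign was kept for 1 of 10 members in liver and 3 of 10 in spleen, beside 34.1% and 40.3% of all genes.

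In liver the dye difference was 0.33 for Cxcl10 and Cxcl14, 0.32 for Cxcl2, 0.22 for Cxcl9, 0.17 for Cxcl5, 0.14 for Cxcl1, 0.12 for Cxcl12 and 0.08 for Cxcl13. It was below 0, meaning brighter in Cy3, for Cxcl11 (-0.09) and Cxcl16 (-0.20). In spleen it was 0.47 for Cxcl10, 0.23 for Cxcl1, 0.19 for Cxcl5, 0.18 for Cxcl2, 0.15 for Cxcl12, 0.10 for Cxcl14, 0.05 for Cxcl9, 0.03 for Cxcl13 and 0.01 for Cxcl11. Cxcl16 was again brighter in Cy3 at -0.24, as was its second probe in both organs (-0.18 and -0.14).

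The 2 probes of Cxcl12 had dye differences of opposite sign, 0.12 and -0.07 in liver and 0.15 and -0.17 in spleen. The members' median was 0.16 in liver and 0.12 in spleen, against 0.01 and 0.02 over all genes. None passed 1.5-fold on both arrays after loess, where 0.451% of genes did in liver and 0.022% in spleen. When arrays were centred on the median alone, without the correction that follows intensity, 10 of 10 members in liver and 8 of 10 in spleen passed it. The share of all genes passing it under that centring was not counted, so these counts are not read as particular to the members.

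**Figure D2:**
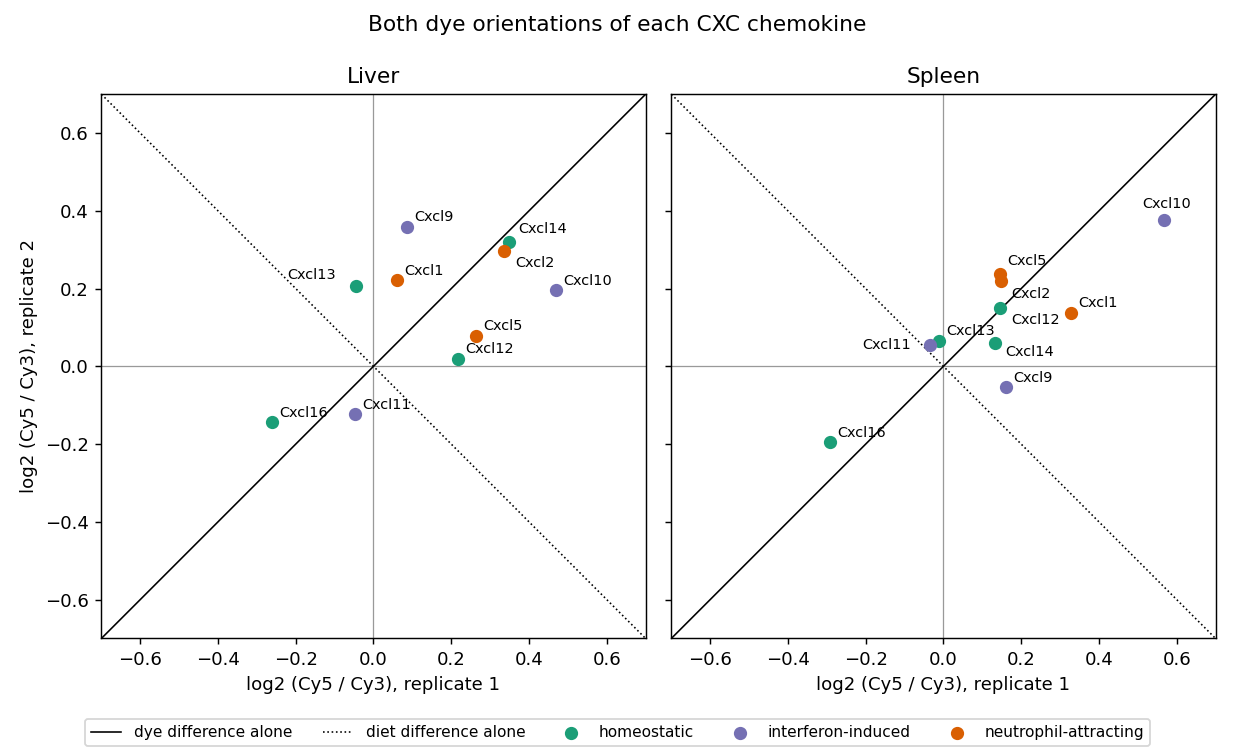
Log2 ratio of Cy5 over Cy3 on the replicate 1 array (horizontal axis) and the replicate 2 array (vertical axis) of liver (left) and spleen (right), 1 point per CXC chemokine coloured by group. Points on the solid diagonal differ by dye alone and points on the dotted diagonal by diet alone; in spleen Cxcl10 (0.57 and 0.38) and Cxcl16 (-0.29 and -0.20) lie at opposite ends along the solid line.

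If the numbered pools were instead different mice, the arrays could be tested as replicates. Under limma with Benjamini-Hochberg adjustment over all measurable genes, no member was called in liver or spleen and none had an unadjusted p under 0.05, and the lowest adjusted p of a member was 0.9998. That fit called 32 of 16216 genes in liver and 0 of 18075 in spleen, where 471 had an unadjusted p under 0.05. With dye orientation as a term it called 48 and 52 genes, and the 95% intervals of the members' log2 ratios lay within -0.36 to 0.35 in liver and -0.25 to 0.33 in spleen. Without that term they lay within -0.57 to 0.84 and -0.61 to 0.80, so a 1.5-fold difference lay outside the interval of all 10 members with the dye term, and without it inside that of 1 member, Cxcl10. The dye term takes the dye effect of a gene to be the same in both organs, and the narrower intervals rest on that. Both fits also borrow the spread of a gene in part from all genes, so the intervals do not exclude a diet difference of that size.

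The organs differed far more than the diets did. A gene was called for organ when liver and spleen differed by over 2-fold in the same direction in all 4 pairs of channels matched for dye and diet, which held for 28.7% of 18975 genes (12.5% higher in liver, 16.2% higher in spleen). Of the 10 members, 2 were higher in liver (Cxcl1 and Cxcl14) and 4 in spleen (Cxcl5, Cxcl12, Cxcl13 and Cxcl16). The 4 not called were Cxcl2 and the 3 interferon-induced members. Levels are compared probe by probe, since probes differ in brightness, and with the arrays of an organ read as 1 pool per diet these calls carry no test.

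**Figure D3:**
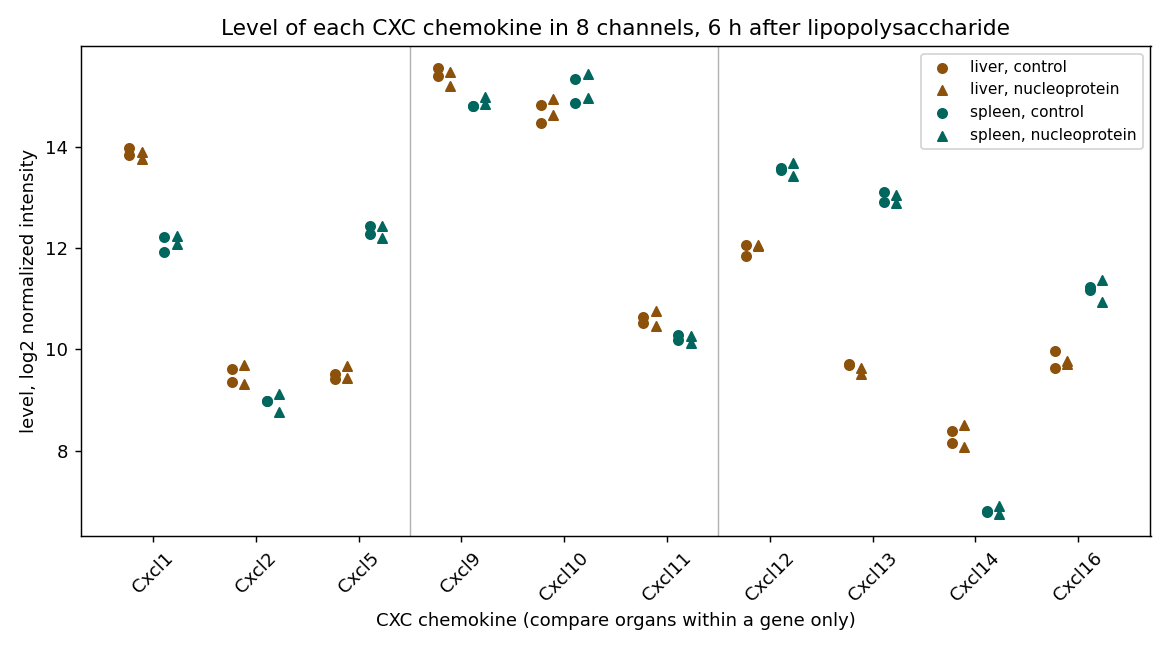
Level of each CXC chemokine as log2 normalized intensity (vertical axis) in the 4 liver and 4 spleen channels, with circles for control and triangles for nucleoprotein pools. Organs are to be compared within a gene only; the liver and spleen channels of Cxcl13, between 9.51 and 9.72 and between 12.89 and 13.12, stand apart by far more than the diets do.

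The organ differences split the neutrophil-attracting group. Cxcl1 was between 13.77 and 13.99 in liver and between 11.92 and 12.25 in spleen, a difference of 1.76 ± 0.12 (SD over 4 matched channels) or 3.38-fold, and it was 2.56 when channels were scaled by their 75th percentile. Cxcl5 went the opposite way, from between 9.42 and 9.68 in liver to between 12.21 and 12.45 in spleen, -2.84 ± 0.09 or 7.14-fold higher in spleen. Cxcl2 was 0.53 ± 0.11 higher in liver, 1.44-fold, with all 4 channels between 0.37 and 0.64 and so under the 2-fold bound. Liver and spleen channels did not overlap for any of the 3, nor for 9 of the 10 members (Cxcl10 overlapped), but the same held for 80.2% of all genes. Neutrophil markers were a median of 0.85 lower in liver (-0.85), with 1 of 12 called, S100a8, which was higher in spleen (-1.30, and -0.73 under 75th percentile scaling).

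None of the interferon-induced members was called between organs. Cxcl9 was 0.55 ± 0.17 higher in liver (1.46-fold) and Cxcl11 0.38 ± 0.21 (1.31-fold), while Cxcl10 was lower in liver by -0.44 ± 0.09 (1.36-fold higher in spleen). Scaling by the 75th percentile changed this group: Cxcl9 was then called higher in liver at 1.59, Cxcl10 turned to 0.58 higher in liver, and Cxcl11 stood at 0.65, not called. The direction of Cxcl10 between organs thus depended on the scaling, although the all-gene median moved little (-0.09 and -0.04, and -0.19 with the intensities processed by the scanner software).

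Among homeostatic members Cxcl13 had the widest gap, at -3.35 ± 0.15 (10.2-fold higher in spleen), with channels from 9.51 to 9.72 against 12.89 to 13.12. Cxcl12 was 2.95-fold higher in spleen (-1.56 ± 0.13) by the variant 2 probe and 2.52-fold (-1.33 ± 0.14) by the variant 1 probe, and the first lost its call at -0.81 under 75th percentile scaling. Cxcl16 was 2.65-fold and 2.24-fold higher in spleen by its 2 probes (-1.40 ± 0.19 and -1.17 ± 0.16). Cxcl14 was the homeostatic member higher in liver, from 8.07 to 8.51 against 6.75 to 6.91, a difference of 1.47 ± 0.14 or 2.77-fold, and of 2.59 by the 75th percentile.

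Cell type markers also differed between the organs. B cell markers had a median difference of -5.64 (liver minus spleen), with Ms4a1 at -7.04, and their log2 summed level was 9.05 to 9.12 in liver and 15.06 to 15.21 in spleen. T cell markers had a median of -2.66 with 3 of 5 called higher in spleen. The T cell markers Cd3e (0.75) and Cd4 (0.07) lay on the liver side and were not called. Macrophage markers had a median of -2.02 with 4 of 5 called higher in spleen, and endothelial markers -0.58 with 2 of 5. Stromal and follicular dendritic markers had a median of -0.82, with 3 called higher in spleen and 1 (Dcn) in liver. Clec4f, a Kupffer cell marker, was well above background in 4 of 4 liver channels and in 0 of 4 spleen channels. Their part in the chemokine differences was not tested.

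**Figure D4:**
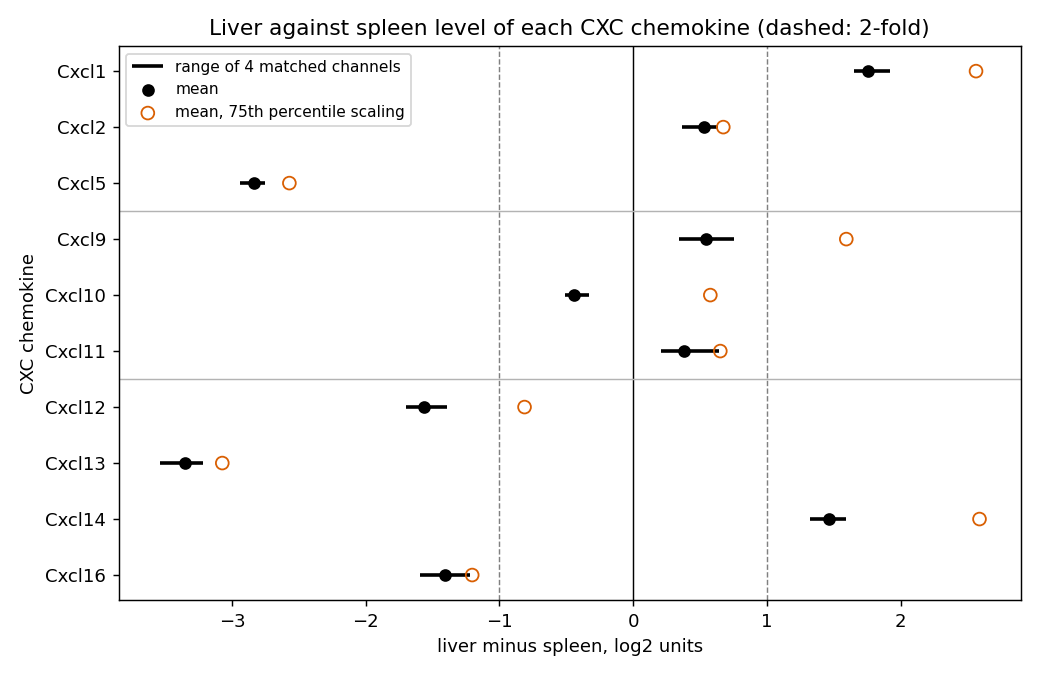
Liver minus spleen difference of each CXC chemokine in log2 units (horizontal axis), with filled points for the mean and lines for the range of 4 channels matched by dye and diet, open circles for the mean after 75th percentile scaling, and dashed lines at 2-fold. Cxcl13 (-3.35) and Cxcl5 (-2.84) lie farthest to the spleen side and Cxcl1 (1.76) farthest to the liver side, and Cxcl10 changes side with the scaling (-0.44 and 0.58).

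No receptor of these chemokines was called for diet in either organ. Cxcr2, the receptor of the neutrophil-attracting members, had a mean ratio of 0.13 ± 0.12 in liver and 0.03 ± 0.05 in spleen by its brighter probe and of -0.01 ± 0.07 and -0.03 ± 0.03 by the other, and Cxcr1 was not well above background in any channel. Cxcr3, the receptor of the interferon-induced members, had ratios of -0.12 and -0.35 in spleen (mean -0.24 ± 0.16) and -0.01 ± 0.04 in liver. Cxcr4, which binds Cxcl12, had -0.15 ± 0.15 in spleen and -0.02 ± 0.04 in liver, and Cxcr6, which binds Cxcl16, -0.07 ± 0.06 and 0.03 ± 0.02. Both spleen arrays were below 0 for Cxcr3, Cxcr4 and Cxcr6, and above 0 for the scavenging receptor Ackr3 and the brighter Cxcr2 probe. Of 6 receptors measured in spleen, 5 kept their sign on both arrays, beside 40.3% of all genes. For the brighter Cxcr2 probe this rested on a replicate 1 ratio of 0.0003, and its other probe was below 0 on both (-0.05 and -0.01). Ackr1 did not keep its sign by its brighter probe, but its second probe was below 0 on both (-0.05 and -0.06). The count thus depended on the probe and is not read as a result about the receptors. No value reached the 1.5-fold bound, though the Cxcr3 mean in spleen was larger in size than the all-gene 95th percentile there (0.18).

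The scavenging receptors take up chemokines without classical signalling. Ackr3, which removes Cxcl12, had a diet ratio of 0.17 ± 0.07 in liver and 0.05 ± 0.03 in spleen, and Ackr1, the Duffy receptor of vessels that binds many inflammatory CXC chemokines, 0.07 ± 0.36 and 0.09 ± 0.13. Cxcr5, which binds Cxcl13, had 0.04 ± 0.04 in liver, while its spot on the replicate 2 spleen array was an outlier and was dropped, so that a single spleen array gave 0.00.

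Between organs, 6 receptors were measurable in at least 1 organ with a value in every channel, and 4 of them were called higher in spleen. Cxcr3 stood at -2.30 ± 0.14 (4.93-fold), Cxcr6 at -1.86 ± 0.07 (3.64-fold) and Ackr3 at -2.66 ± 0.08 (6.33-fold). Under 75th percentile scaling these differences were larger, -3.63, -2.44 and -3.01. Cxcr4 stood at -2.54 ± 0.30, and at -4.57 under 75th percentile scaling, but only 2 of its 4 liver channels were well above background, so it was not measurable in liver and no fold is given. Ackr1 was the receptor called higher in liver, at 3.80 ± 0.11 (13.9-fold, and 4.96 under 75th percentile scaling) by its brighter probe and 2.72 by the other. Cxcr2 was 1.74-fold higher in spleen (-0.80 ± 0.09, and -1.37 under 75th percentile scaling) and not called, and its second probe gave -0.21. Cxcr5 differed by -7.08 over the 2 channels available, 135-fold higher in spleen, beside the 10.2-fold of its ligand Cxcl13.

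Other CXC ligands on the array were also not called for diet. Cxcl3, a close relative of Cxcl1 and Cxcl2, had ratios of 0.30 and 0.04 in liver (mean 0.17 ± 0.18) and 0.45 and 0.14 in spleen (mean 0.30 ± 0.21). It kept its sign on all 4 arrays, unlike Cxcl1 and Cxcl2. The share of all genes doing so was not counted. Its mean was larger in size than the all-gene 95th percentile in spleen (0.18) but not in liver (0.20). The platelet chemokines Pf4 and Ppbp were higher in spleen by -2.84 ± 0.19 (7.18-fold) and -3.33 ± 0.18 (10.1-fold). Cxcl15 was well above background in 3 liver channels and 0 spleen channels, and Cxcl17 in none.

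Genes that drive, bind or cut these chemokines were taken from lists, and 0 genes of any list were called for diet. Of 16 inducers of the neutrophil-attracting members, 2 were higher in liver and 4 in spleen. The interleukin-1 receptor Il1r1 (3.34 ± 0.06) and the interleukin-17 receptor Il17ra (1.72 ± 0.08) were the liver ones, and Tnf (-1.54 ± 0.18), the NF-kB subunit Nfkb1 (-1.47 ± 0.16), its inhibitor Nfkbia (-1.37 ± 0.40) and Il17a the spleen ones. Il17a was not well above background in liver and was at least 2.37-fold higher in spleen, and its spleen diet ratios of -0.39 and -0.56 fell short of the bound. Their mean of -0.47 was larger in size than the all-gene 95th percentile in spleen (0.18). Under 75th percentile scaling Nfkbia stood at -0.36 and the others kept a difference of over 2-fold on average.

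Of 14 measured inducers of the interferon-induced members, none was higher in liver and 2 were higher in spleen: interferon gamma itself, Ifng, by -4.20 ± 0.21 (18.4-fold), and its receptor chain Ifngr1 by -2.25 ± 0.12 (4.77-fold). Ifng had diet ratios of -0.16 and -0.23 in spleen and -0.05 and 0.26 in liver. Among 7 measured genes of lymphoid organ upkeep, 5 were higher in spleen with Cxcl13, namely Ltb (-4.55 ± 0.12), Lta, Ccl19, Relb and Nfkb2, and none in liver. Of 9 genes that process or anchor CXC chemokines, the heparan sulfate carrier Sdc1 was higher in liver (3.62 ± 0.11) and none in spleen.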

How the data were processed

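Total RNA of liver and spleen, pooled by diet, was hybridised to 4 two-colour Agilent whole mouse genome arrays of a single slide. The authors deposited scanner output, made with Agilent Feature Extraction (9.5.3.1 in the submitters' processing notes, 9.5.1.1 per the file headers), with mean, background and processed intensity in each channel and a log10 ratio of red over green per spot, per the file headers. The deposited series value table held red over green as a linear ratio, within 0.0051 of the processed intensities for 100% of spots well above background on each array, with a minus sign on every replicate 1 value (column medians -0.92, 0.92, -0.96 and 0.96). It was not centred, and the purpose of that sign is unknown.

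Each array had 45018 spots, 43379 of them for genes. Intensities were corrected with normexp (offset 50) and loess in limma 3.58.1 (R 4.3.3), with 1639 control spots at weight 0, and 189 to 354 outlier gene spots per array were left out, while 0 were saturated. Per channel, 55.2% to 72.8% of gene spots exceeded background clearly, and the number of arrays limits the precision. Levels came from Aquantile scaling. A gene, named through RefSeq by accession for 22951 probes, by symbol or synonym for 6659 and 3109, and by the file for 8455, was represented by its brightest probe. It was measurable where well above background on both arrays in at least 1 diet.

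The members, the receptors and any list gene called for diet were to be named. Members and lists were chosen with earlier results of these data known, and list genes called between organs were named after their values were seen. Ly6g, Serpina1a and Ccl21a were not matched to a probe name. For a probe dim in 1 organ, a fold is the bright organ's mean against the higher of the dim probe's own signal and the lowest signal well above background, given as "at least". The same-numbered arrays share a dye orientation by the labels, and their deviations from the organ means correlated at 0.4893 over 15316 genes. The limma fit was tested on simulated data, and alternatives covered background, centring, scaling, probe choice, filters and each array left out.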

Additional observations from a re-analysis of the deposited data

Results flagged for a closer look

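The diet ratio of Cxcr6, the receptor of Cxcl16, had opposite signs in the 2 organs on every array: 0.04 and 0.02 in liver and -0.11 and -0.03 in spleen, a liver minus spleen difference of 0.10. With the arrays taken as separate pools, the difference between organs had an adjusted p of 0.999957 or above in limma, with and without the dye term, and no value came near the 1.5-fold bound. It was the only one of 15 genes examined (members and receptors measurable in both organs with a value on every array) with this pattern.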

How the results depend on the processing

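No member was called for diet under any of 11 alternatives in either organ. With both arrays, liver ratios of members lay between -0.17 and 0.55 and spleen ratios between -0.06 and 0.14, and on single arrays between -0.36 and 0.47 and between -0.38 and 0.57. The upper liver value came from median centring, which moved the all-gene median in liver from 0.01 to 0.17 and the member median from 0.02 to 0.31, and turned the liver means of Cxcl1, Cxcl9, Cxcl13 and Cxcl16 above 0; with both arrays kept, 5 of 70 liver and 2 of 70 spleen member values moved by more than the SD of the arrays. Median centring, which leaves out the correction for intensity, also put 10 members in liver and 8 in spleen past 1.5-fold between dyes. Loess put 0 there, and the share of all genes under median centring was not counted. The number of members called between organs stayed within 1.5 times under 8 alternatives, with the exchange of Cxcl9 for Cxcl12 and the turn of Cxcl10 under 75th percentile scaling given above.

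Calls over all genes moved more. In liver 2 genes were higher and 52 lower; deposited Feature Extraction log ratios and the series value table each gave 28 and 106, median centring 0 and 32, limma without a replicate block 0 and 32, and limma with the replicate block 1 higher; leaving out an array gave 30 to 196 higher and 98 to 260 lower. In spleen 39 were higher and 41 lower; Feature Extraction gave 102 and 81, the value table gave 102 higher and 79 lower, limma without the block 0 and 0, limma with the replicate block 19 higher, an offset of 10 gave 66 higher, median centring 10 lower, and leaving out an array 52 to 59 higher and 58 to 88 lower. The cause was not tested, beyond the fewer arrays in the last. The block on the replicate number is the dye term, and it changed no call of a member.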
